A study of Mus musculus with 2 samples.

Results

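The 39 Hox genes encode homeodomain transcription factors that give cells their position along the body axis, and 39 of 21938 protein-coding genes in mouse chromosomes 1 to 19, X and Y met the definition used here. They were taken as every protein-coding gene of GENCODE release M21 whose symbol is Hoxa, Hoxb, Hoxc or Hoxd followed by digits, a rule on names that uses no measured value. The assay was CUT&Tag, in which an antibody brings the transposase Tn5 to a protein on chromatin and Tn5 then cuts and tags the DNA around it. The antibody was anti-GFP, which binds YPet, a yellow fluorescent protein. The cells were SYAT mouse embryonic stem cells (mESC), a CGR8 line with YPet and an auxin-inducible degron (AID) fused to both alleles of SRCAP and with stable expression of the plant receptor OsTir1, derived from 1 homozygous clone. Both samples belonged to 1 group, in serum and LIF medium with auxinole, a blocker of the auxin response that serves as the control condition, and they were numbered replicate 1 and replicate 2. The study describes its replicates in general as independently cultured and treated cells, and not analysed here were auxin-treated cells, cells without YPet and any control library. Each replicate gave a list of peaks with an integer score, 6158 peaks in replicate 1 and 12958 in replicate 2. The score was read as 10 times the −log10 of the peak caller's q-value, cut to a whole number, with a minimum of 13 in both lists. The lists give no read numbers and reads were not used here, so the depth was unknown and numbers and scores were described within a list only.

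SRCAP is the ATPase of a chromatin remodeling complex that replaces histone H2A in nucleosomes with the variant H2A.Z. The mouse Hox genes lie in 4 clusters, in which genes are numbered by paralog group. Low numbers lie at the 3′ end of a cluster and are used earlier and further to the head, and high numbers lie at the 5′ end and are used later and further to the tail. In embryonic stem cells, Hox clusters are a textbook case of genes held silent by Polycomb, with H3K27me3 over the cluster and H3K4me3 at many of its promoters, and retinoic acid or the Wnt and Cdx axis opens them during differentiation. The data ask at which Hox promoters tagged SRCAP was called in these stem cells, whose Hox expression and histone marks were not examined here.

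The Hox promoters were almost free of called SRCAP peaks. A gene was called if at least 1 bp of a peak fell between 1000 bp before and 500 bp after any of its annotated transcription start sites (TSS), a span referred to as the promoter window. In replicate 1, 0 of 39 Hox genes were called, against 15.7% of all protein-coding genes. In replicate 2, 2 of 39 were called, against 30.4%, and these were Hoxb1, a gene of the hindbrain, and Hoxc13, a gene of hair and nail. No Hox gene was called in both replicates, against 12.0% of all genes, and 2 were called in either, against 34.0%. The mean over replicates was 1 ± 1.41 Hox genes (SD, n = 2).

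As a share, the Hox genes stood at 0% in replicate 1 (95% Wilson interval 0 to 8.97%) and at 5.13% in replicate 2 (1.42 to 16.9%). These intervals cover counting error only and treat genes as independent, which neighbours in a cluster are not. By cluster, replicate 2 called 0 of 11 Hoxa genes, 1 of 10 Hoxb genes, 1 of 9 Hoxc genes and 0 of 9 Hoxd genes. By paralog group, 1 of 3 genes of group 1 and 1 of 4 genes of group 13 were called, and none of the genes of groups 2 to 12. The called genes thus sat at opposite ends of the paralog order, Hoxb1 at the 3′ end of its cluster and Hoxc13 at the 5′ end of its own.

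**Figure D1:**
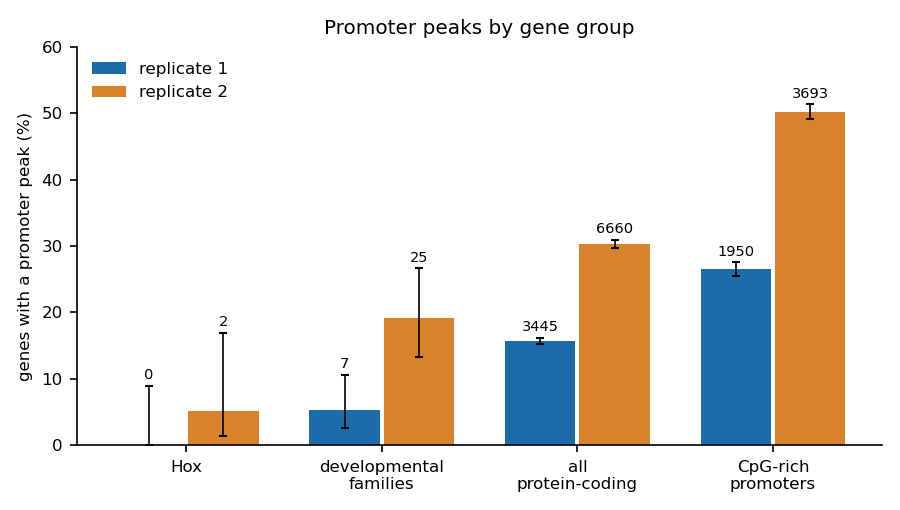
Percentage of genes with a promoter peak in each replicate for the 39 Hox genes, 131 genes of developmental transcription factor families, 21938 protein-coding genes and 7351 protein-coding genes with a CpG-rich promoter. Bars give the share, error bars its 95% Wilson interval and labels the number of genes, and the Hox bars, at 0% and 5.13%, are the lowest in each replicate.

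Within 50 kb of the clusters there were 6 peaks in all, 1 in replicate 1 and 5 in replicate 2, a mean of 3 ± 2.83 (SD, n = 2), and none overlapped a peak of the other replicate. The sequences of the 3 that lay in or closest to a cluster are printed here, since 2 of them carry the SRCAP calls at Hoxb1 and Hoxc13 and the third is the closest peak that calls no Hox gene. They were read from GRCm38, the assembly also called mm10, on the plus strand, over at most the central 300 bases of each peak. Capitals mark the dinucleotide CG, whose local density sets CpG islands apart.
Hoxb1 peak, chr11:96365772-96366071: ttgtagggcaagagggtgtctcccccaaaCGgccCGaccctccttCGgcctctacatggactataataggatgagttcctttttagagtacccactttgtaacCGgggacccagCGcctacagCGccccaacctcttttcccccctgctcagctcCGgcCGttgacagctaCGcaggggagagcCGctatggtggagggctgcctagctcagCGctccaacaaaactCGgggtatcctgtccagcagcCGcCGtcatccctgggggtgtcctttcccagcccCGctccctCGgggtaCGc
Hoxc13 peak, chr15:102921500-102921799: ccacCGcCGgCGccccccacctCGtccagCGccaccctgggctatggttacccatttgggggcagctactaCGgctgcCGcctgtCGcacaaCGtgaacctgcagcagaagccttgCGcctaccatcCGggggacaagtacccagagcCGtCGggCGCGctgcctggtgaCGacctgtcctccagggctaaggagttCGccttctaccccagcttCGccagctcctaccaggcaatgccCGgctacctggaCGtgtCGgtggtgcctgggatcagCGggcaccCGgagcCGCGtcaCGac
Peak past the 3′ end of the Hoxc cluster, chr15:103041332-103041631: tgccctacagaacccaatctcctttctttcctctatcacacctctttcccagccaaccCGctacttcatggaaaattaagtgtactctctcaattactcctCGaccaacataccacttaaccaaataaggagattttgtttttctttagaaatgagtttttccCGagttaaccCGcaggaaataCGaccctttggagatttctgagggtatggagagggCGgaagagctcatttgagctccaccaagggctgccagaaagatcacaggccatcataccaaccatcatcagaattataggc

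The Hoxb1 peak spanned 302 bp at chr11:96365771-96366072 and had a score of 13, the minimum of the list, which 264 of its 12958 peaks shared (2.04%). It ran from 19 to 320 bp downstream of the first Hoxb1 TSS, at position 96365752 on the plus strand, over the UTR and the start of the coding sequence in an exon of Hoxb1. Its GC content was 61.9%, with 17 CG dinucleotides. The nearest peak of replicate 1 was 212 kb away.

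The Hoxc13 peak spanned 428 bp at chr15:102921436-102921863 and had a score of 23, a value that 21.01% of the list did not exceed. It began 333 bp and ended 760 bp downstream of the only annotated Hoxc13 TSS, at position 102921103, so that its midpoint at 546 bp lay just past the promoter window. It overlapped exonic coding sequence of Hoxc13 and no annotated UTR. It held 36 CG dinucleotides at a GC content of 67.5%, and the nearest peak of replicate 1 was 296 kb away. Both Hox promoter peaks lay in the transcribed part of the gene, wholly downstream of its first TSS, and neither contained a TSS. Hoxb1 has a further annotated TSS, and the peak lay wholly upstream of that one.

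The Hoxc window held a pair of further replicate 2 peaks, both between genes. The peak at chr15:103041323-103041639 had a score of 19, lay 4.47 kb past the 3′ end of the cluster and 7.09 kb downstream of the nearest Hoxc4 TSS, and had a GC content of 45.4% with 6 CG dinucleotides. The peak at chr15:103086025-103086407 had a score of 22, lay 49.2 kb past the cluster, 15.9 kb from the lincRNA gene Gm28876, and had a GC content of 67.1%. The Hoxc window was the only one with more than 1 peak in a list.

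The Hoxa window held 1 peak, of replicate 2, at chr6:52105427-52105682. It had a score of 34, overlapped only the outer edge of the window, 49.9 kb from the cluster, and fell in an intron of the long noncoding RNA gene Halr1, 2.55 kb from its TSS. In the Hoxb window, replicate 1 gave its only peak near a Hox cluster, at chr11:96152987-96153432, with a score of 31, across an internal coding exon of the tubulin glutamylase gene Ttll6, 40.9 kb upstream of Hoxb13. No peak of either replicate fell in the Hoxd window. None of the 6 scores exceeded 34, while the median of all peaks was 32 in replicate 1 and 36 in replicate 2, and the median at protein-coding promoters was 35 and 43.

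**Figure D2:**
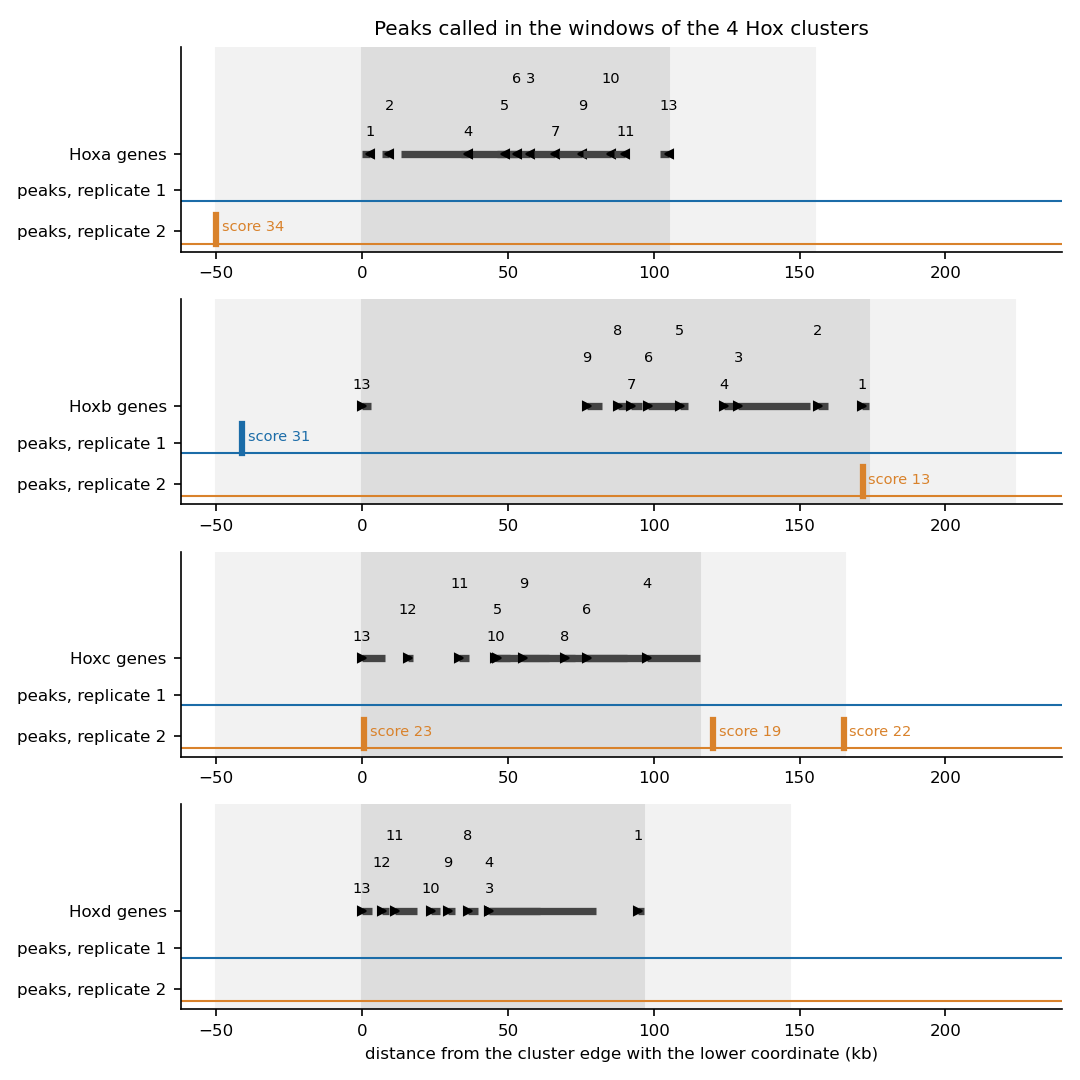
Maps of the 4 Hox clusters, with distance in kb from the cluster edge of lower coordinate on the x axis, the cluster in dark grey, the 50 kb flanks in light grey, genes as bars with an arrowhead at the gene start and their paralog number above, and peaks of each replicate as ticks with their score. Of the 6 peaks, 2 lie inside a cluster, both of replicate 2, at Hoxb1 and Hoxc13, and the Hoxd map has none.

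Across the genome, peaks with scores as low as those near Hox clusters were shared between the replicates less often than higher ones. Among the 6006 replicate 2 peaks with a score of at most 34, the highest score near a Hox cluster, 11.0% overlapped a replicate 1 peak (95% Wilson interval 10.3 to 11.9%), against 40.03% of the peaks above it. Among the 3038 replicate 1 peaks with a score of at most 31, 38.6% overlapped a replicate 2 peak, against 73.0% above it. The calls at Hoxb1 and Hoxc13 rest on the list of replicate 2 alone and on scores below its median.

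Counted per base, the Hox windows were not low in both lists. Together the 4 windows covered 892 kb, at a density of 1.12 per Mb in replicate 1 and 5.61 in replicate 2, against 2.26 and 4.75 over chromosomes 1 to 19, X and Y, so that the windows were lower in replicate 1 and higher in replicate 2. Inside the clusters, which covered 492 kb, the values were 0 and 4.07 peaks per Mb. The gap was wider in promoter sequence. The promoter windows of the Hox genes merged into 58 regions of 98.9 kb, with 0 peaks per Mb in the list of replicate 1 and 20.2 in that of replicate 2. Those of all protein-coding genes held 40.5 and 81.4, and those with CpG-rich sequence 55.6 and 111. Of the 58 Hox promoter regions, 3.45% were overlapped in replicate 2, against 13.9% of all protein-coding promoter regions.

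A gene with several start sites has more promoter sequence in which a peak can fall, and Hox genes had few. They had a median of 2 annotated TSS (1 to 6), against 3 for all protein-coding genes. Genes were therefore split by TSS number, a split added after the values were known. Among genes with 1 TSS, 6.62% were called in replicate 1 and 13.6% in replicate 2, and of the 16 such Hox genes 0 and 1 were called. Among genes with 2 TSS, the shares were 9.91% and 18.4%, with 0 and 1 of 12 Hox genes. Among genes with 3 TSS they were 15.0% and 28.6%, and among genes with 4 to 6 TSS 20.5% and 38.8%, with none of the 5 and 6 Hox genes called in either list. If each Hox gene were called at the share of its TSS class, 4.23 of 39 would be called in replicate 1 and 8.14 in replicate 2, against 0 and 2 observed. These values are a description, given with no test.

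Base composition differed in the other direction. Promoters rich in CG dinucleotides were called more often than others, and Hox promoters are rich in them. In the window around the first TSS, the Hox genes had a median GC content of 55.5% (44.3 to 66.2%), against 51.7% for all protein-coding genes. Their median ratio of observed to expected CG was 0.615, against 0.482. With a GC content of at least 50% and a ratio of at least 0.6 taken as CpG-rich, 20 of 39 Hox promoters qualified (51.3%), against 33.5% of all protein-coding promoters. Of the CpG-rich promoters of all genes, 26.5% were called in replicate 1, 50.2% in replicate 2, 21.4% in both and 55.4% in either. Among the developmental transcription factor families, 69 promoters were CpG-rich. Of these, 3 were called in replicate 1 (4.35%), 16 in replicate 2 (23.2%), 2 in both (2.90%) and 17 in either (24.6%). These shares also lay below those of all CpG-rich promoters. Of the 20 CpG-rich Hox promoters, 0 were called in replicate 1, 1 in replicate 2, 0 in both and 1 in either. The gene was Hoxc13, while the Hoxb1 promoter, with a ratio of 0.398, was not in this class. Hoxa5 (0.908), Hoxa4 (0.904) and Hoxd13 (0.902) had the highest ratios among the Hox genes and were called in neither list.

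The same held along the scale of GC content. Between 55 and 60% GC, where 14 Hox promoters lay, 23.1% of all genes were called in replicate 1 and 42.7% in replicate 2, and the Hox counts were 0 and 1. Between 50 and 55%, with 11 Hox promoters, the shares were 19.6% and 37.8%, and the Hox counts were again 0 and 1. At 65% or more, where 21.05% and 44.8% of all genes were called, Hoxa4, Hoxa13 and Hoxd13 had no peak.

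**Figure D3:**
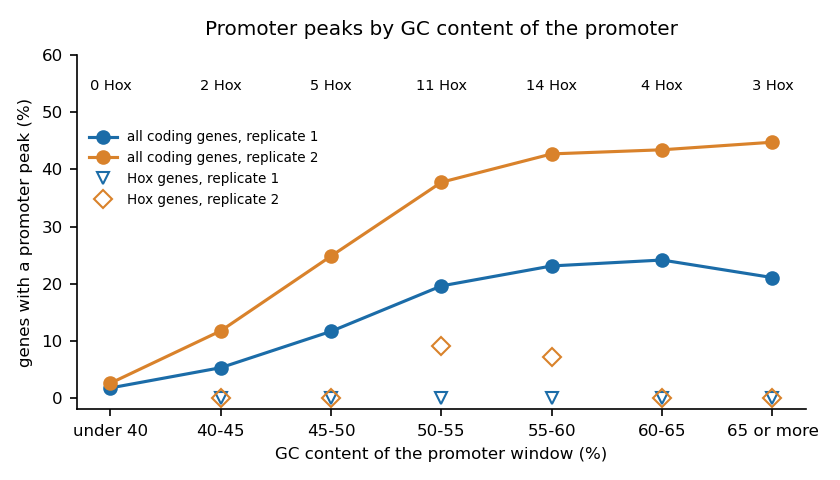
Percentage of genes with a promoter peak in each replicate by GC content of the promoter window around the first TSS, with lines for all protein-coding genes, open symbols for Hox genes and the number of Hox genes in each class on top. The lines stand between 19.6% and 44.8% in the classes from 50% GC upward, while the open symbols are at 0% except for 1 of 11 and 1 of 14 Hox genes in replicate 2.

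The promoters of Hoxa13 and Hoxd13, genes of the limb and the genital tubercle, show such an uncalled sequence at its richest in CG. Both are RefSeq promoters on GRCm38.p6, from 250 bases before to 50 after the start, printed 5′ to 3′ in the direction of transcription with CG in capitals. They were picked as the richest in CG of the 24 Hox promoters with a RefSeq entry, with 45 and 37 CG dinucleotides in 300 bases, where the lowest had 4.
Hoxa13, chr6:52260831-52261130, minus strand: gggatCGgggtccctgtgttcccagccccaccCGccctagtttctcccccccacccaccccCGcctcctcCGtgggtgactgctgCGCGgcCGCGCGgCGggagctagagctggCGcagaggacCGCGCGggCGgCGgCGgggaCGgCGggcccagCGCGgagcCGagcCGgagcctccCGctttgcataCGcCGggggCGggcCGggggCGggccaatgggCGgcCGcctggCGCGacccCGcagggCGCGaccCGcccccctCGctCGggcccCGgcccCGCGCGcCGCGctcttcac
Hoxd13, chr2:74667975-74668274, plus strand: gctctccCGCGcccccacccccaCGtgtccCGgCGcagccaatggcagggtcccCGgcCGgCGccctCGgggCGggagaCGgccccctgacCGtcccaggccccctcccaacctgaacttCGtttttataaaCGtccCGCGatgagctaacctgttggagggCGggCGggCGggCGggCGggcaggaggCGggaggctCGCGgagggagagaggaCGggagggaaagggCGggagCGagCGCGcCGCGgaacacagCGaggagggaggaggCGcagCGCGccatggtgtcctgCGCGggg

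Short motifs of promoter-binding factors were counted in these RefSeq promoters on both strands. RefSeq entries matched 22 of the 39 Hox genes, with 24 promoters, and 16522 of 21911 protein-coding symbols, with 20150 promoters. The matched Hox genes were of the Hoxa and Hoxd clusters except Hoxb1, Hoxb4, Hoxb8 and Hoxc4, so Hoxc13 was not among them. The CCAAT box (CCAAT, read by NF-Y) was in 62.5% of the Hox promoters, in 37.8% of all and in 44.2% of those of genes called in both replicates. The GC box (GGGCGG, read by Sp factors) was in 41.7%, 47.8% and 67.0% of the same 3 groups, and in 72.0% of all CpG-rich promoters. The E box CACGTG was in 20.8%, 8.03% and 9.00%. The NRF1 core GCATGCGC and the BANP core TCGCGAGA were in 0% of the Hox promoters, and in 3.65% and 1.44% of all. Over its full length, the Hoxb1 peak held none of the 5 motifs and the Hoxc13 peak held 2 CCAAT boxes. With 24 promoters these shares are a description of the letters in these windows.

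Most Hox genes lay far from any peak. From the closest TSS, the nearest peak was at a median of 179 kb in replicate 1 (40.9 to 303 kb) and of 78.2 kb in replicate 2 (0.019 to 155 kb). The medians for all protein-coding genes were 67.4 and 20.5 kb, and 38 and 34 of 39 Hox genes were farther than that. By cluster, the replicate 1 medians were 196 kb for Hoxa, 144 kb for Hoxb, 262 kb for Hoxc and 119 kb for Hoxd. In replicate 2 they were 103, 64.4, 31.8 and 98.8 kb, so that the Hoxc cluster had the largest median in replicate 1 and the smallest in replicate 2. Genes of a cluster share their nearest peaks, so the 39 distances are not independent.

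In replicate 1, the Hox genes nearest to a peak were Hoxb13 at 40.9 kb, Hoxd13 at 89.3 kb and Hoxd12 at 96.0 kb, all at the 5′ end of a cluster. The farthest were Hoxc12 at 303 kb, Hoxc13 at 296 kb and Hoxc11 at 285 kb. In replicate 2, apart from Hoxb1 and Hoxc13, the nearest were Hoxc4 at 6.93 kb, Hoxb2 at 14.1 kb and Hoxc12 at 14.9 kb, and the farthest were Hoxa13 at 155 kb, Hoxa11 at 140 kb and Hoxa10 at 128 kb. Hoxc12 and Hoxc13 were thus among the farthest genes in replicate 1 and among the nearest in replicate 2. The Hoxd genes of groups 9 to 13 were the ones on which the lists came closest, with Hoxd13 at 89.3 and 89.0 kb and Hoxd12 at 96.0 and 95.7 kb, since both lists had a peak at the Lnpk promoter.

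**Figure D4:**
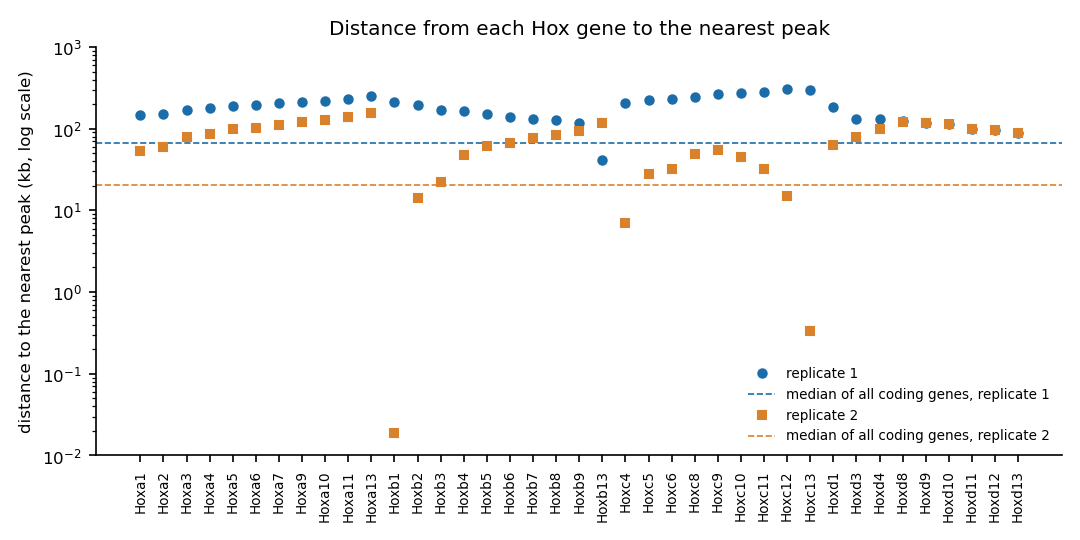
Distance in kb, on a log axis, from the closest TSS of each of the 39 Hox genes to the nearest peak of replicate 1 (circles) and replicate 2 (squares), with dashed lines at the medians of all protein-coding genes, 67.4 and 20.5 kb. Only Hoxb13 in replicate 1 and Hoxb1, Hoxb2, Hoxc4, Hoxc12 and Hoxc13 in replicate 2 lie under the line of their replicate.

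The peak-free stretch around each cluster was measured between its neighbouring peaks. In replicate 1, the stretch around the Hoxa cluster was 628 kb long, around Hoxb 582 kb, around Hoxc 614 kb and around Hoxd 1126 kb, and each held every gene of its cluster. Such lengths were not unusual in that list, where 19.9, 21.7, 20.4 and 9.38% of the 6131 intervals between neighbouring peaks were as long or longer. By gene content they ranked higher. Each was chosen for lying around a cluster of adjacent genes, so once few of those are called, a high gene count largely follows. The Hoxa stretch held the starts of 16 protein-coding genes, the Hoxb stretch 11, the Hoxc stretch 13 and the Hoxd stretch 15, where the median interval held 2, and 3.08, 7.10, 5.09 and 3.67% of intervals held as many or more.

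In replicate 2, the stretches measured 500 kb at Hoxa with 15 gene starts, 289 kb at Hoxb with 12, 119 kb at Hoxc with 8 and 247 kb at Hoxd with 13. Of the 12931 intervals, 9.88, 19.5, 41.8 and 22.9% were as long or longer. The median interval held 1 gene start, and 0.742, 1.20, 2.99 and 1.01% held as many or more. The Hoxb stretch ended inside the cluster, at the Hoxb1 peak with its score of 13. The Hoxc stretch held 8 of the 9 Hoxc genes, and its ends were the peak at Hoxc13 and the peak past the cluster that are printed above. Clustered genes fall into the same interval together, so each cluster counts as 1 observation here. Because the stretches were chosen around clusters, their gene counts are no result apart from the low number of calls.

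The genes at the ends of these stretches did carry promoter peaks, often in both lists. In replicate 1 the Hoxa stretch ran from the promoter of Skap2 (scores 35 and 55 in replicates 1 and 2) to that of Hibadh (61 and 79). The Hoxc stretch ran from Atf7 (165 and 210) to the promoter shared by Cbx5, which encodes the heterochromatin protein HP1α, and Hnrnpa1 (30 and 74). The Hoxd stretch began at Lnpk (164 and 87), and in replicate 2 it ended at Mtx2 (38, none in replicate 1). On the side of Hoxb13, the nearest promoter called in both lists was Atp5g1 (87 and 77), 119 kb from the cluster. Of the 48 other protein-coding genes that start within 500 kb outside a Hox cluster, 12 were called in replicate 1 (25%), 18 in replicate 2 (37.5%) and 10 in both (20.8%), shares above those of all protein-coding genes, with no test made. The Hoxb flanks differed from this sum, with 4 of 18 called in replicate 1 (22.2%), above the share of all genes, but 3 in replicate 2 (16.7%) and 2 in both (11.1%), below it. Neighbouring genes can be called on the same peak, as at Cbx5 and Hnrnpa1, and Atf7 and Gm28047 also had equal scores. The flank shares were not split by TSS number.

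Summed over the clusters, peak density was lowest inside them. In replicate 1 it was 0 per Mb inside the clusters, 2.5 within 50 kb of a cluster edge, 2.5 from 50 to 100 kb, 3.75 from 100 to 200 kb and 4.17 from 200 to 500 kb, on 0, 1, 1, 3 and 10 peaks by midpoint. In replicate 2 it was 4.07, 5, 10, 11.25 and 10 per Mb, on 2, 2, 4, 9 and 24 peaks. Single clusters differed from these sums, as at Hoxd, where density was highest from 50 to 100 kb in both replicates. The counts inside and next to the clusters are too small to tell neighbouring distances apart, and other protein-coding genes were also few next to the clusters, with 1 gene in the 400 kb within 50 kb of an edge, 6 in the 400 kb from 50 to 100 kb, 8 in the next 800 kb and 33 in the last 2400 kb.

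**Figure D5:**
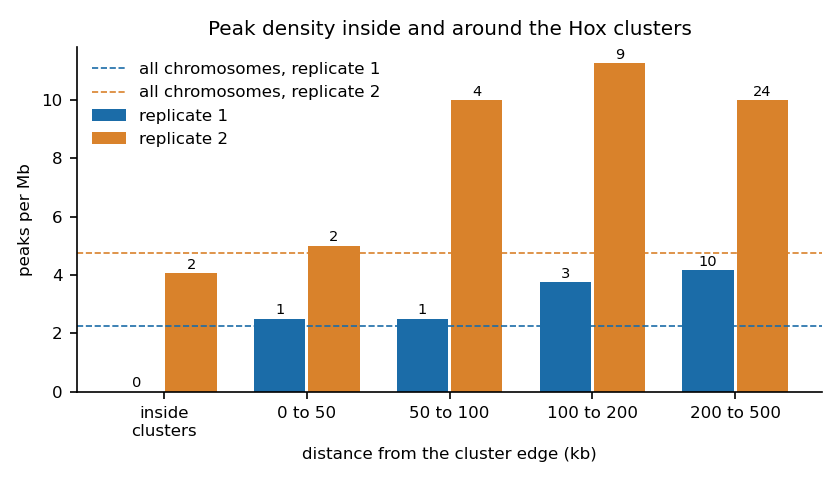
Peaks per Mb inside the 4 Hox clusters and at increasing distance in kb from their edges, for both replicates, with the number of peaks over each bar and dashed lines at the density over chromosomes 1 to 19, X and Y. The bars inside the clusters, on 0 and 2 peaks, are the lowest of each replicate, and in replicate 2 those beyond 50 kb stand at 10 per Mb or more.

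No other gene in the windows was called. A total of 60 genes that are not Hox genes start within a cluster or its 50 kb flanks, 46 of them inside a cluster. They were 4 protein-coding genes, Evx2, 5730596B20Rik, Gm28308 and Gm28230, and 56 of other types, such as the long noncoding RNA genes Hotairm1, Hottip, Hotair and Haglr and the microRNA genes Mir10a and Mir10b. None of the 60 had a promoter peak in either list. Genes of other types are seldom called anywhere, with 2.10% of 33475 in replicate 1 and 4.32% in replicate 2, so that 0 of 56 lies near this background. Evx1 and Evx2, homeobox genes next to the 5′ ends of Hoxa and Hoxd at 52.6 and 8.75 kb from the cluster, were likewise without a peak.

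The 131 genes of 10 other families of developmental transcription factors, among them Fox, Pax, Tbx, Lhx and Sox, of which 52.7% had CpG-rich promoters, were the closest comparison. They were called in 7 cases in replicate 1 (5.34%, 95% Wilson interval 2.61 to 10.6%), 25 in replicate 2 (19.1%, 13.3 to 26.7%) and 3 in both (2.29%). In either list 29 were called (22.1%), against 2 Hox genes (5.13%). These shares lay between those of the Hox genes and of all genes, and the difference from the Hox genes was not tested. The nearest peak was at a median of 75.8 kb from these genes in replicate 1 and 32.4 kb in replicate 2, against 179 and 78.2 kb for the Hox genes. Genes called in both lists included Foxn3 (53 and 71) and Irx1 (13 and 20). None of 8 ParaHox and Evx genes, relatives of the Hox genes (Gsx1, Gsx2, Pdx1, Cdx1, Cdx2, Cdx4, Evx1 and Evx2), was called in either list. With 8 genes the 95% Wilson interval ran from 0 to 32.4%, which includes the 15.7% and 30.4% of all genes.

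Lists of partners and regulators of Hox genes were counted by the same rule, beside 12.0% of all genes called in both replicates. Of 9 genes for TALE homeodomain proteins, which bind DNA together with HOX proteins, 2 were called in replicate 1, 3 in replicate 2 and 2 in both, namely Pbx3 (63 and 68) and Pbx4 (58 and 98). Of 20 Polycomb genes, 6 were called in replicate 1, 11 in replicate 2 and 5 in both. Those 5 were Phf19 (129 and 65), Suz12 (43 and 59), Cbx8 (25 and 22), Rnf2 (22 and 41) and Ezh2 (16 and 59), which encode an accessory protein and core subunits of PRC2, the complex that places H3K27me3, and subunits of PRC1, which places H2AK119ub. Of 8 genes for MLL-type H3K4 methylation, 1 was called in replicate 1, 6 in replicate 2 and 1 in both, Dpy30 (59 and 66). Of 11 retinoic acid genes the counts were 1, 3 and 1, with Aldh1a2, an enzyme that makes retinoic acid, at 23 and 35, and of 7 CTCF and cohesin genes they were 1, 5 and 1, with Stag1 at 80 and 107. The shares of these lists ran from 27.3% for retinoic acid to 75% for H3K4 methylation in replicate 2, where 30.4% of all genes were called. In replicate 1 they ran from 9.09% for retinoic acid to 30.0% for Polycomb, and those for retinoic acid, H3K4 methylation (12.5%) and CTCF and cohesin (14.3%) lay below the 15.7% of all genes. The lists are short and their difference from the Hox genes was not tested.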

How the data were processed

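The data are CUT&Tag peak lists of SRCAP-YPet from 2 samples of 1 group. Per the labels and the study's methods, reads were aligned to mm10 with STAR, duplicates removed with Picard and peaks called per sample with MACS2. Which further steps of the methods (scaling by Drosophila reads, removal of blacklisted regions, a control) were applied to these lists is not given in the sources used here. The peak lists that the authors deposited give chromosome, start, end, name and an integer score for each peak, and hold no read number. Promoter calls, distances and densities were computed from these lists with Python 3.11.15 and numpy 2.4.6, with genes of GENCODE M21 and sequence of GRCm38. With 1 group there was no comparison between groups, and no test was made, so each count stands beside the share over all protein-coding genes. The rule for members used gene symbols only, but the Hox genes and the other lists were picked for description with earlier results of these data known. Named genes were those with a promoter peak, the 3 nearest to and 3 farthest from a peak, and list members called in both replicates (at most 5 per list), not all of which are reported here. The gene calls were tested on simulated peaks among 21938 genes. A direct search of the same promoter windows called 255 genes, and all were recovered. This tests the overlap search and not the choice of window. Alternatives changed the promoter window, transcripts, score, list length, repeats, flank, overlap and replicate.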

Additional observations from a re-analysis of the deposited data

How the results depend on the processing

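Of 44 values recomputed under another window, transcript set, score, list length, repeat filter, flank or overlap, 30 stayed the same and 14 moved. The count of 0 Hox genes in replicate 1 and in both replicates held under every promoter window, transcript set, score, list length and repeat filter tried. Only the window of 2000 bp either side of the TSS could have raised it, since the other settings can only remove calls. The count of 2 in replicate 2, and in either replicate, fell to 0 and 0 when a peak had to contain a TSS (all genes 20.6% and 23.3%), to 0 and 0 with a score of at least 50 (13.1% and 14.3%), and to 0 and 0 with both lists cut to equal length by score (19.2% and 25.2%). Peaks in the windows fell to 0 in replicate 1 and 0 in replicate 2 with a score of at least 50, and to 0 in replicate 2 with equal lengths. With flanks of 20 kb there were 0 and 3 peaks, and with 100 kb 2 and 8, of which 1 overlapped between replicates, at Lnpk. With 1 replicate left out, the mean number of called Hox genes, 1 over both, lay between 0 and 2, and the mean number of window peaks, 3 over both, between 1 and 5. No paired analysis was possible because there was 1 group. With depth unknown, a Hox promoter without a peak is one where none was called, and a signal below the caller's threshold was not detectable in these lists.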
